A study of Mus musculus with 3 samples.

Results

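A small set of cell barcodes from a mouse esophageal organoid culture carried transcripts of epithelial and of mesenchymal cells under 1 barcode. They were the 140 barcodes, of 14925 kept, that held at least 5 UMIs of Krt5, Krt14 and Epcam together and at least 2 UMIs of Vim and Col1a1 together. A UMI is 1 counted RNA molecule. The members were chosen by these raw UMI sums. A barcode was kept with a minimum of 500 genes and 1000 UMIs and a mitochondrial part of no more than 20%, which left out 3191 of the 18116 barcodes in the matrix. The 140 were 0.938% of the kept barcodes (exact 95% binomial interval 0.790 to 1.11%). They are called mixed barcodes here, because the labels do not say whether 1 droplet held 1 cell or several. Another 10330 barcodes met the epithelial condition alone (epithelial-only), 1523 met the mesenchymal condition alone (mesenchymal-only) and 2932 met neither.

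The culture, named PC, came from esophageal organoids of mice with both Trp53 alleles floxed. Trp53 had been knocked out with an adenovirus carrying Cre and EGFP, and Cdkn2a with CRISPR/Cas9. The cells also expressed Cas9 constitutively and had received a library of genetic barcodes with Lipofectamine 3000, followed by 3 passages and a sort of live RFP-positive cells, about 1000000 sorted and about 20000 recovered per the labels. All barcodes below share these alleles and agents. The labels give esophageal cancer as the tissue and describe an organoid; the series text adds a period in medium with serum and Y-27632, an inhibitor of the kinase ROCK, that was withdrawn before the single-cell run. The values form 1 matrix and 1 sample, so no test between groups was possible and every interval covers counting error only. Vim, Col1a1, Krt5, Krt14 and Epcam chose the barcodes, so their levels are descriptions.

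Epithelial cells are held in sheets by cadherins, desmosomes and claudins and are anchored to a basement membrane by hemidesmosomes, and the basal cells of the esophagus make the paired keratins Krt5 and Krt14. Mesenchymal cells lack these junctions, build intermediate filaments of vimentin and secrete fibrillar collagens. In an epithelial to mesenchymal transition, factors of the Zeb, Snail and Twist families repress junction genes such as Cdh1 while matrix and contractile genes are switched on, and intermediate cells can carry transcripts of both kinds. A droplet that takes up 1 cell of each kind yields the same combination of transcripts.

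Zeb and Snail factors are known to bind the E-box letters CAGGTG, which read CACCTG on the opposite strand. The windows below show whether these letters lie around the RefSeq starts of the 3 epithelial genes and of the mesenchymal gene Vim. Vim is the gene that brought in most of the mixed barcodes. Each runs 5′ to 3′ on the strand of the gene, from 250 bases before to 50 bases after the start, and is taken from RefSeq on GRCm38.p6. Capitals mark CAGGTG or CACCTG, searched on both strands.
Epcam promoter, chr17:87635729-87636028, plus strand: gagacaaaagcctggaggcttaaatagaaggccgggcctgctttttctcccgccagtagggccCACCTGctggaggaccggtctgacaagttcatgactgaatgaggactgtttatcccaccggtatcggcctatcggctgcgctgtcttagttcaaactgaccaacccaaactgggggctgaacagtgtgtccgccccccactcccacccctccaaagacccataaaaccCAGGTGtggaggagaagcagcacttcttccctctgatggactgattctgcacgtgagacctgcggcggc
Krt5 promoter, chr15:101712856-101713155, minus strand: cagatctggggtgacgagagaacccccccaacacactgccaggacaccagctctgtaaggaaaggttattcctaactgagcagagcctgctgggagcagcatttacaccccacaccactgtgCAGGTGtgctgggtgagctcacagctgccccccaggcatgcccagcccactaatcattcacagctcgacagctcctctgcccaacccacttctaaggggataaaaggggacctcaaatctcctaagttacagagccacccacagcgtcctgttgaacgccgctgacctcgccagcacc
Krt14 promoter, chr11:100205981-100206280, minus strand: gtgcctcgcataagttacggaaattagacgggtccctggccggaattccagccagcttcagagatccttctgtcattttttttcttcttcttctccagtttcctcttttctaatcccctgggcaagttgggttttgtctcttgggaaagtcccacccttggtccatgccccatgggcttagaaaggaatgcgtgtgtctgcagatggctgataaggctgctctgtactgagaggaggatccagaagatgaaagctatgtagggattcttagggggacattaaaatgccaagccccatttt
Vim promoter, chr2:13574061-13574360, plus strand: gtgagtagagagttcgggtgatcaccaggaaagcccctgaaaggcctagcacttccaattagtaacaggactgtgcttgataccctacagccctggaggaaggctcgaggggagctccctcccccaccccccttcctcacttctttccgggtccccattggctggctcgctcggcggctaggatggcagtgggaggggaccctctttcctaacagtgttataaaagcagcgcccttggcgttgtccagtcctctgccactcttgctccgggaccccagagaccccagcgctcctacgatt
Epcam, which encodes a surface adhesion protein of epithelia, held 2 matches, at 187 and 19 bases before its start. Krt5 held 1 match, 128 bases before its start. Krt14 and Vim held 0 in these windows. For Krt14 and Vim the whole window lies inside the gene span of the GENCODE annotation. These windows therefore do not cover the bases before those spans. On that annotation both are stretches inside a gene, and the label promoter rests on the RefSeq start alone. Their counts of 0 cannot be set beside the matches of Epcam and Krt5. Whether the 3 epithelial genes of the rule share the letters was not tested. Of 32851 promoters of 300 bases, 20.2% held at least 1 match and 2.88% held at least 2. A match describes letters and does not show that a factor was bound. In the GENCODE M21 annotation, Epcam (ENSMUSG00000045394) spans chr17:87635979-87651129, Krt5 (ENSMUSG00000061527) chr15:101707070-101712898, Krt14 (ENSMUSG00000045545) chr11:100203162-100207548, Vim (ENSMUSG00000026728) chr2:13573927-13582826 and Col1a1 (ENSMUSG00000001506) chr11:94936224-94953042.

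The mixed barcodes carried a median of 8 UMIs of the epithelial rule genes, with a highest value of 69, and a median of 3 UMIs of the mesenchymal rule genes, with a highest value of 21. Vim, which encodes the filament protein vimentin, had a UMI in 134 of the 140 barcodes, with a median of 3 and at most 19. Col1a1, which encodes a chain of type I collagen, had a UMI in 66 of them and at most 5. Both mesenchymal genes were present in 60 barcodes, Vim alone in 74 and Col1a1 alone in 6. Krt14 had a UMI in 131 barcodes, Epcam in 124 and Krt5 in 112, and 95 barcodes held all 3. The mesenchymal evidence was therefore thin in many members, 45 of which had exactly 2 UMIs of Vim and Col1a1.

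The mixed barcodes formed the tails of both sums. Among the 10470 barcodes that met the epithelial condition, 10103 had 0 UMIs of Vim and Col1a1, 227 had 1, 45 had 2, 31 had 3 and 21 had 4. Among the 1663 that met the mesenchymal condition, 905 had 0 UMIs of the epithelial rule genes, 426 had 1, 117 had 2, 47 had 3, 28 had 4 and 24 had 5. Mixed barcodes made up 1.34 per 100 of the epithelial-condition barcodes and 8.42 per 100 of the mesenchymal-condition barcodes. No gap separated the mixed barcodes from their neighbours along either sum.

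**Figure D1:**
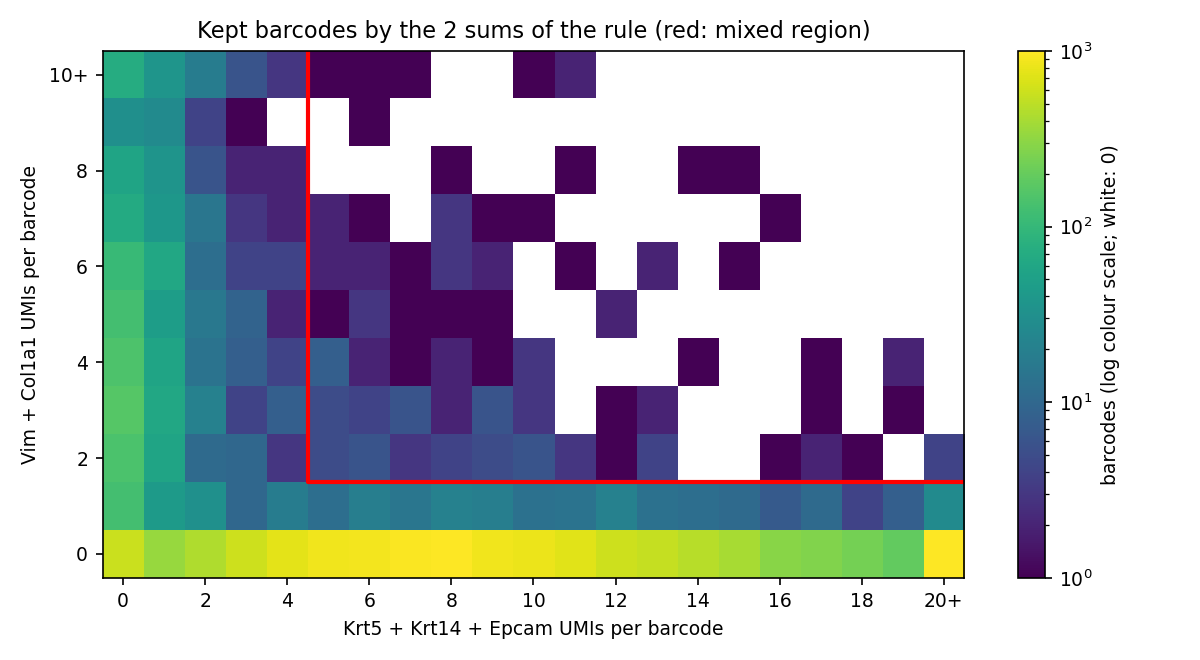
Kept barcodes by UMIs of Krt5, Krt14 and Epcam together (x axis) and of Vim and Col1a1 together (y axis), with the number of barcodes on a log colour scale and red lines at the limits of the rule. The 140 mixed barcodes fill the upper right corner thinly, and the dense bands lie at 0 UMIs on the y axis and on the left.

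As summed levels, the rule genes lay between both single-condition classes. Levels are given as CPM, the UMIs of a gene per 1000000 UMIs summed over a class. Vim stood at 660 CPM in mixed barcodes (exact 95% Poisson interval 600 to 724), 4.27 in epithelial-only and 1220 in mesenchymal-only barcodes. Col1a1 stood at 194, 2.46 and 341 CPM in the same order. Epcam stood at 653, 1360 and 19.9 CPM, Krt5 at 415, 800 and 10.9 CPM, and Krt14 at 927, 1442 and 144 CPM. The rule fixes the low levels of the single-condition classes, and these values are not evidence of a difference.

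Depth set the mixed barcodes apart. Their median was 4602 UMIs (95% interval from order statistics 4449 to 4916), with a lowest value of 2056 and a highest of 8688. Epithelial-only barcodes had a median of 3144 UMIs (3113 to 3168) and mesenchymal-only barcodes 3350 (3302 to 3388). The mixed median was 1.46 times the first and 1.37 times the second, and 130 of the 140 lay above the epithelial-only median. A raw UMI threshold is passed more readily by a deeper barcode, so the rule itself favours depth. The share of mixed barcodes was 0 of 3348 kept barcodes between 1000 and 2000 UMIs (exact upper limit 0.110%). It was 0.186% between 2000 and 3000 UMIs, 0.518% between 3000 and 4000, 2.78% between 4000 and 5000, 4.56% between 5000 and 6000 and 6.99% between 6000 and 8000. The counting intervals of the bins from 3000 and from 4000 UMIs did not overlap (0.325 to 0.783% and 2.11 to 3.60%).

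The sum of 1 epithelial-only and 1 mesenchymal-only barcode gave a second reference, taken over all 15732590 possible pairs. The pairs had a median of 6569 UMIs, 1.43 times that of the mixed barcodes, and 90% of them lay between 4412 and 9409 UMIs. Of the mixed barcodes, 52 were below 4412 UMIs and 12 were above the pair median. The mixed barcodes thus lay between single barcodes and pairs in depth. Genes per barcode followed the same order, with medians of 1561 in epithelial-only, 1658 in mesenchymal-only, 2086 in mixed barcodes and 2672 in pairs. Within 4122.5 to 5571.5 UMIs, the middle part of the mixed distribution, the 70 mixed barcodes had a median of 2086 genes. In this range, 1752 epithelial-only barcodes had 2018 genes, 285 mesenchymal-only barcodes 2058 and the pairs 2258. Depth still differed within this window, where single-condition barcodes thin out and pairs become more frequent towards its upper end. The mitochondrial share was alike, with medians of 2.86% in mixed, 2.65% in epithelial-only and 2.80% in mesenchymal-only barcodes.

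**Figure D2:**
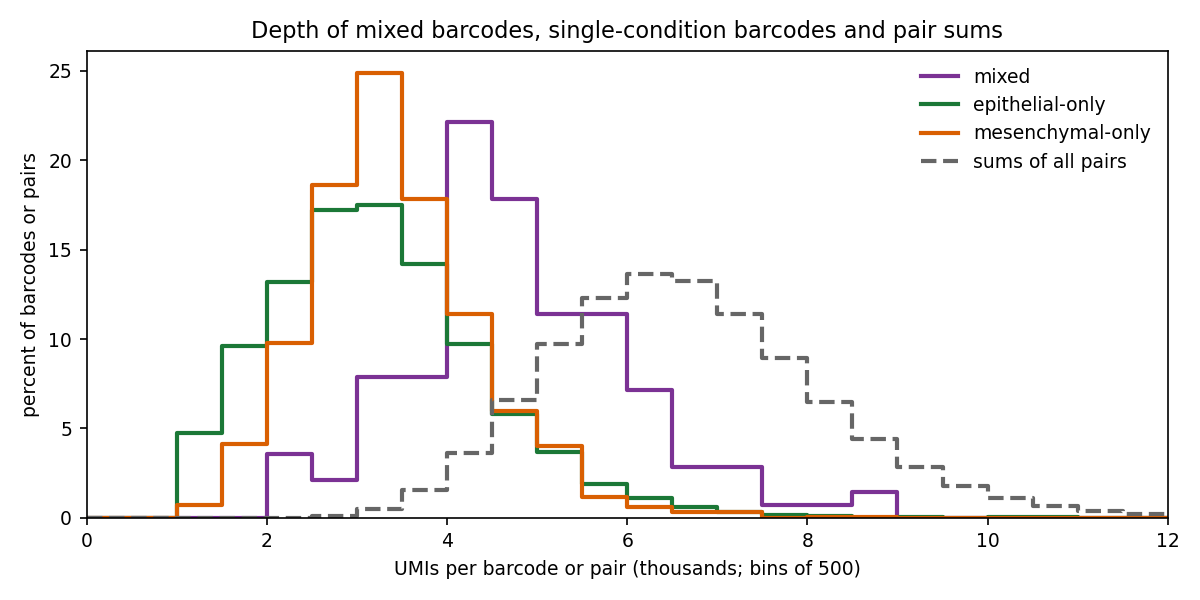
UMIs per barcode, in units of 1000 (x axis, bins of 500 UMIs) against the percent of barcodes or pairs (y axis) for mixed, epithelial-only and mesenchymal-only barcodes and the sums of all pairs (dashed). The mixed barcodes peak between the single-condition classes and the pair sums, with medians of 4602, 3144, 3350 and 6569 UMIs.

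Scrublet, which scores each barcode by its likeness to sums of barcodes from the same matrix, called 1 of the 14925 barcodes a doublet, too few for a working call, and doublets are taken as not removed. Its scores were nevertheless uneven. The median score was 0.315 in mixed barcodes (90% of them between 0.0507 and 0.544), 0.0778 in epithelial-only and 0.0265 in mesenchymal-only barcodes. A score of at least 0.170, the limit of the highest 10% of kept barcodes, was reached by 100 of 140 mixed barcodes (71.4%, exact 95% interval 63.2 to 78.7%), against 11.1% of epithelial-only and 6.57% of mesenchymal-only barcodes. The other 40 mixed barcodes had scores below it. The scores read all genes, the rule genes included, and whether a mixed barcode held 1 cell or 2 was not tested.

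The genes outside the rule placed the mixed barcodes between both classes. The epithelial-only and mesenchymal-only profiles were mixed in steps of 0.01, without the 5 rule genes, to find the mesenchymal share that best described each barcode. Summed over all mixed barcodes the fitted share was 0.48, and the median over pairs of the mesenchymal barcode's part of the UMIs was 0.517. For single mixed barcodes the median was 0.51, with 0.35 and 0.633 as quartiles. A share from 0.2 to 0.8 was fitted to 108 of the 140 (77.1%), a share under 0.2 to 19 and a share over 0.8 to 13. Epithelial-only barcodes had a median share of 0 and 556 of 10330 from 0.2 to 0.8, and mesenchymal-only barcodes a median of 1 and 120 of 1523 in that range. These limits cut a continuous score: 1 mixed barcode lay within 0.05 of the lower limit and 8 within 0.05 of the upper one. The values form ranges and not cell types.

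**Figure D3:**
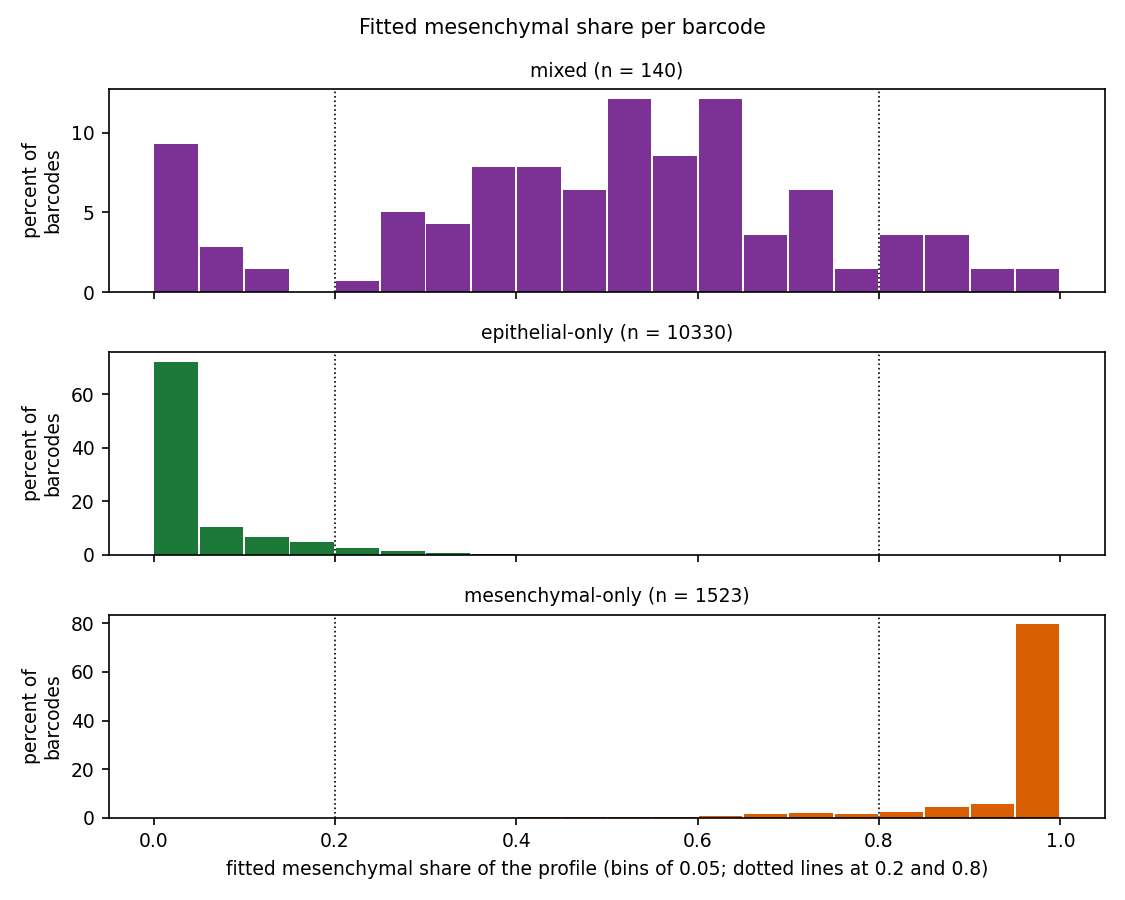
Fitted mesenchymal share of each barcode's profile outside the rule genes (x axis, bins of 0.05) against the percent of barcodes (y axis), in 1 panel per class, with dotted lines at 0.2 and 0.8. Single-condition barcodes pile up at 0 or 1, while 108 of 140 mixed barcodes lie between the dotted lines and 19 lie below 0.2.

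Across the table, a gene was called different at a CPM ratio of at least 2 either way, a higher level of at least 10 CPM and exact 95% Poisson intervals that did not overlap. The call describes 2 sets of UMIs and is no test. Against epithelial-only barcodes 723 of 8986 genes (8.05%) were called, 489 higher (5.44%) and 234 lower (2.6%) in mixed barcodes. Against mesenchymal-only barcodes 722 of 9028 genes (8.0%) were called, 454 higher (5.03%) and 268 lower (2.97%). Against the pairs 102 of 8922 genes (1.14%) were called, 37 higher (0.415%) and 65 lower (0.729%). This balance turned to 98 higher and 71 lower with at least 10 epithelial UMIs, to 63 and 58 with at least 5 mesenchymal UMIs and to 151 and 81 without the highest 10% of Scrublet scores. The single-condition classes differed from each other at 2020 of 9088 genes (22.2%), and the mixed level lay between theirs for 1837 of these 2020. For the 994 genes higher in epithelial-only barcodes the mixed level stood at a median of 0.49 of the way from the mesenchymal-only to the epithelial-only level. For the 1026 genes higher in mesenchymal-only barcodes it stood at 0.44 of the way up to the mesenchymal-only level. All 3 comparisons read the same mixed barcodes, and the pair levels are built from the single-condition classes.

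**Figure D4:**
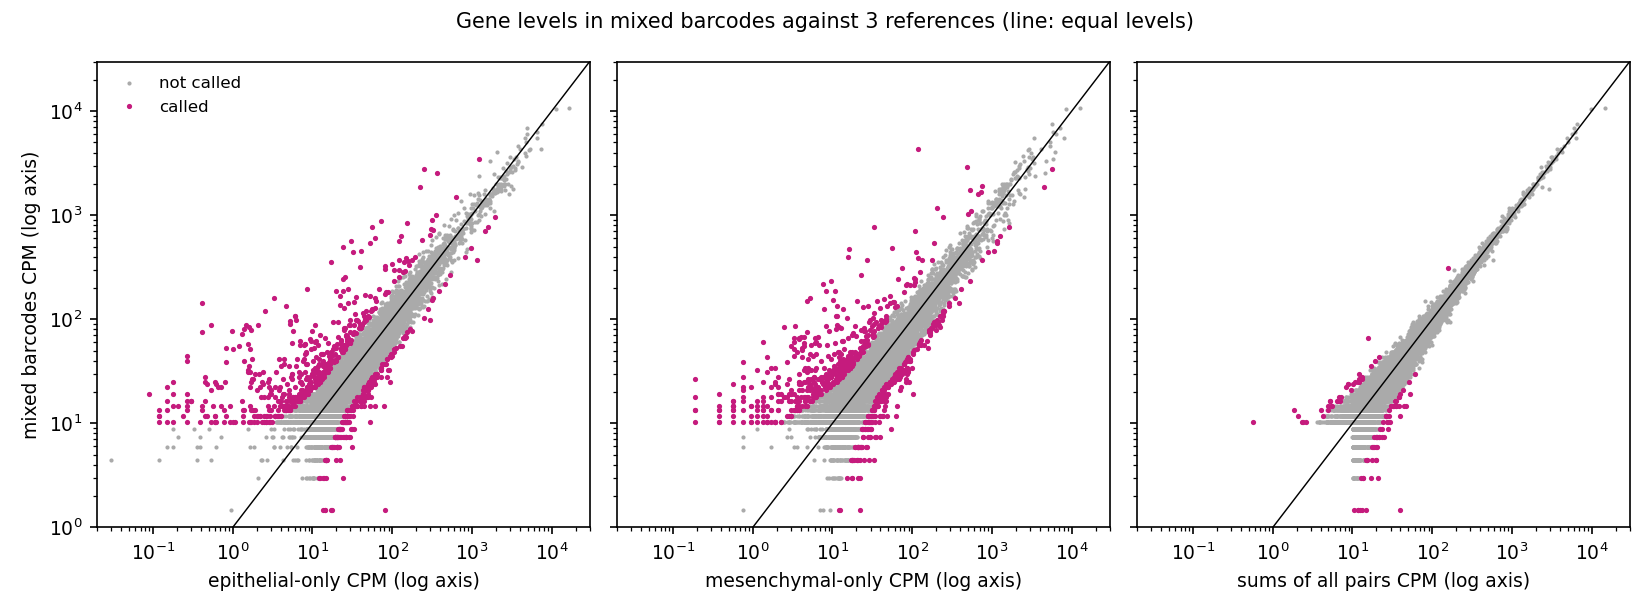
Each point is a gene outside the rule that was tested against the pairs and had UMIs on both axes. The x axes (log) give CPM in epithelial-only barcodes, mesenchymal-only barcodes or pair sums, and the y axis (log) CPM in mixed barcodes. Called genes are coloured and the line marks equal levels. The cloud is widest in the first and second panels and narrow against the pairs. Over all tested genes 723, 722 and 102 were called, and some of these are not drawn.

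Most junction genes were above the mesenchymal-only level in mixed barcodes, and a few were below the epithelial-only level. Of the 13 adhesion and junction genes tested, 2 were called lower than in epithelial-only barcodes, 10 were called higher than in mesenchymal-only barcodes and 0 differed from the pairs. Over all genes, 2.6% were called lower than in epithelial-only barcodes and 5.03% higher than in mesenchymal-only barcodes. The median log2 ratio of the list was -0.75 against epithelial-only barcodes, -0.03 over all genes. It was 1.68 against mesenchymal-only barcodes, again -0.03 over all genes. Cdh1, the epithelial cadherin of adherens junctions, stood at 154 CPM in mixed barcodes (126 to 187), 317 in epithelial-only, 10.1 in mesenchymal-only and 160 in pairs. Cldn4, a tight junction protein, stood at 264, 532, 22.9 and 271 CPM. Dsp, which links desmosomes to keratins, was not called against epithelial-only barcodes at 168 against 275 CPM, and was 3.21 times the mesenchymal-only level of 52.2. Perp, a desmosomal membrane protein, stood at 285 CPM in mixed, 545 in epithelial-only and 125 in mesenchymal-only barcodes. Pkp1, Dsg2 and F11r were called in no comparison. Pkp1, a desmosomal plaque protein, stood at 162 CPM in mixed, 130 in epithelial-only and 166 in mesenchymal-only barcodes.

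Cdh1 transcripts were found in 70 of the 140 mixed barcodes (exact 95% interval 41.4 to 58.6%) at a median depth of 4602 UMIs. They were found in 60.7% of epithelial-only barcodes at 3144 UMIs and in 3.02% of mesenchymal-only barcodes at 3350 UMIs. With every barcode thinned to 1500 UMIs the shares were 25.7% (18.7 to 33.8%), 37.8% and 1.26%. Thinning left out 0 mixed, 491 epithelial-only and 11 mesenchymal-only barcodes. Both Cdh1 values of the mixed barcodes were above those of the mesenchymal-only class, the class that should lack an epithelial cadherin.

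Keratins and basal identity genes showed the same order. Of 11 tested, 5 were called lower than in epithelial-only barcodes (Krt6a, Krt7, Krt8, Krt19 and Trp63), 1 higher (Krt16) and 10 were called higher than in mesenchymal-only barcodes. The shares over all genes were 2.6%, 5.44% and 5.03% in the same order. Krt6a, a keratin of stressed and wounded epithelium, stood at 220 CPM in mixed, 464 in epithelial-only, 7.64 in mesenchymal-only barcodes and 230 in pairs. Trp63, the master regulator of basal squamous cells, stood at 75.7, 154, 4.78 and 77.7 CPM. Krt17 was not called against epithelial-only barcodes at 1166 against 1682 CPM, and lay above the pair level of 926 without reaching a ratio of 2. Sox2, a transcription factor of the esophageal lineage, was not called in any comparison, at 53.4 CPM in mixed, 70.9 in epithelial-only and 40.9 in mesenchymal-only barcodes. Krt16 came from few barcodes: 45 UMIs in 8 barcodes, of which 1 barcode gave 84.4%.

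Regulators and anchoring genes of the epithelium gave 3 genes called lower than in epithelial-only barcodes, where 2.6% of all genes were. Of 7 epithelial regulators tested, Esrp1 and Ehf were called lower than in epithelial-only barcodes, and Esrp1, Grhl2, Ehf and Klf4 of 6 tested were called higher than in mesenchymal-only barcodes. Over all genes, 5.03% were called higher than in mesenchymal-only barcodes. Esrp1, which directs epithelial splicing, stood at 34.1 CPM in mixed (21.6 to 51.2), 72.4 in epithelial-only, 1.91 in mesenchymal-only barcodes and 36.2 in pairs. Ehf, an epithelial ETS factor, stood at 102, 248, 15.3 and 129 CPM. Of 10 basement membrane and hemidesmosome genes, Col17a1 alone was called lower, at 187 CPM in mixed against 383 in epithelial-only barcodes. Lama3, a chain of an epithelial laminin, stood at 108 CPM in mixed barcodes, 175 in epithelial-only and 11.3 in mesenchymal-only barcodes.

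Matrix genes differed in the other direction. Of 15 tested against epithelial-only barcodes 12 were called higher and 0 lower, and of 19 tested against mesenchymal-only barcodes 9 were called lower and 0 higher. Over all genes, 5.44% were called higher in the first of these comparisons and 2.97% lower in the second. None of 16 was called against the pairs, where 1.14% of all genes were, so this count is near the background. The same holds for the counts of 0 against the pairs in the other lists. The median log2 ratio was 3.31 against epithelial-only, -1.05 against mesenchymal-only barcodes and -0.19 against the pairs (-0.02 over all genes). Fn1, which encodes the matrix glycoprotein fibronectin, stood at 2546 CPM in mixed barcodes (2427 to 2669), 370 in epithelial-only, 4568 in mesenchymal-only and 2523 in pairs. Sparc, a collagen-binding matrix protein, stood at 849, 152, 1639 and 915 CPM. Timp3, an inhibitor of matrix metalloproteinases, stood at 608, 61.5, 1002 and 544 CPM. Col4a1 stood at 197, 27.6, 410 and 224 CPM. Col3a1, a fibrillar collagen, rested on 15 UMIs in 13 mixed barcodes, or 22.3 CPM (12.5 to 36.7), against 71.8 in mesenchymal-only barcodes. Of the 23 matrix genes listed, 2 had 0 UMIs in mixed barcodes, Col1a2 and Lum. Col1a2, the other chain of type I collagen, was near absent from mesenchymal-only barcodes too, at 0.764 CPM (4 UMIs). Lum had 0 UMIs in both single-condition classes.

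Fn1 had a UMI in 96.4% of mixed barcodes, 54.2% of epithelial-only and 99.3% of mesenchymal-only barcodes. Thinned to 1500 UMIs, the shares were 87.1% (80.4 to 92.2%), 35.5% and 98.0%. The Fn1 transcripts of the mixed barcodes were thus spread over nearly all of them, and those of Timp3 over 106 and Acta2 over 117 of the 140.

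Surface and secreted genes of mesenchymal cells, 7 tested against epithelial-only barcodes, gave 3 called higher, Grem1, Ccn5 and Nt5e. Over all genes, 5.44% were called higher in this comparison. Grem1, a secreted antagonist of bone morphogenetic proteins, stood at 144 CPM in mixed barcodes (117 to 176), 0.415 in epithelial-only, 387 in mesenchymal-only and 199 in pairs. It was found in 54 mixed barcodes. The 97 UMIs of Grem1 gave the highest ratio to epithelial-only barcodes among the called genes, 347. Cd44, a hyaluronan receptor, was not called against either class, at 455 CPM in mixed, 346 in epithelial-only and 486 in mesenchymal-only barcodes. Of the 13 genes listed, 5 had 0 UMIs in the mixed barcodes, among them Thy1, which had 0 in both single-condition classes too. Pdgfra, a receptor of fibroblasts, also had 0 UMIs in the mixed barcodes (upper limit 5.47 CPM). In mesenchymal-only barcodes it stood at 12.2 CPM (9.42 to 15.6). Its ratio of 2.75 sets the mixed level to a floor of 3 UMIs over the class, and is no lower limit.

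Transcription factors of the transition lay above the epithelial-only level, apart from Snai2 and those not called. Of 7 tested, Zeb1, Zeb2, Snai1, Twist2 and Lef1 were called higher than in epithelial-only barcodes, Zeb1 and Lef1 were called lower than in mesenchymal-only barcodes, and 0 of 7 differed from the pairs. Over all genes, 5.44% were called higher in the first of these comparisons and 2.97% lower in the second. Zeb1, a repressor of Cdh1, stood at 31.2 CPM in mixed barcodes (19.3 to 47.6, 21 UMIs in 20 barcodes), 3.47 in epithelial-only, 88.7 in mesenchymal-only and 47.2 in pairs. Zeb2 stood at 49.0, 8.42, 88.5 and 49.5 CPM, and was found in 28 mixed barcodes. Snai1 stood at 22.3 CPM (15 UMIs in 13 barcodes), 0.712, 27.1 and 14.3. Snai2 was called in none of the comparisons, at 77.1 CPM in mixed, 88.7 in epithelial-only and 46.8 in mesenchymal-only barcodes.

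Contractile genes, and fewer genes of TGF-beta and YAP signalling, were above the epithelial-only level. Of 8 contractile genes 5 were called higher than in epithelial-only barcodes (Acta2, Tagln, Cnn1, Myl9 and Actn1). Acta2 was called lower than in mesenchymal-only barcodes, and 0 differed from the pairs. Over all genes, 5.44% were called higher than in epithelial-only barcodes and 2.97% lower than in mesenchymal-only barcodes. Acta2, the smooth muscle actin of myofibroblasts, stood at 2765 CPM in mixed (2641 to 2894), 249 in epithelial-only, 5651 in mesenchymal-only barcodes and 3019 in pairs. Tagln, an actin-binding protein, stood at 356, 17.1, 600 and 316 CPM and was found in 40 mixed barcodes. Of 14 genes of TGF-beta and YAP signalling, Ccn2, Tgfb1, Tgfb3 and Inhba were called higher than in epithelial-only barcodes and Tgfbr1 lower. The list holds ligands (Tgfb1 to Tgfb3) and receptors (Tgfbr1 and Tgfbr2) as well as targets. Against mesenchymal-only barcodes 1 of the 14 was called higher and 2 were called lower. Against epithelial-only barcodes, 5.44% of all genes were called higher and 2.6% lower. Against mesenchymal-only barcodes these shares were 5.03% and 2.97%. Ccn2, a matricellular target of YAP, stood at 626, 128, 1276 and 716 CPM. Inhba, which encodes a subunit of activin A, stood at 739, 309, 1409 and 873 CPM.

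A partial transition list, genes known from epithelial tumour cells at an invasive edge, stood at 2031 CPM in mixed barcodes (1925 to 2142), between 1478 in epithelial-only and 2720 in mesenchymal-only barcodes and below 2115 in pairs, with an interval that held the pair value. Of 11 tested, Itga5, Emp3 and Inhba were called higher than in epithelial-only barcodes, where 5.44% of all genes were. Against mesenchymal-only barcodes, Tgfbi and Lama3 were among the genes called higher, and Mmp10 and Emp3 among those called lower. Over all genes, 5.03% were called higher and 2.97% lower in that comparison. None of 12 was called against the pairs. Tnc, which encodes the matrix protein tenascin C, had 602 CPM in mixed, 439 in epithelial-only and 559 in mesenchymal-only barcodes and was not called.

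**Figure D5:**
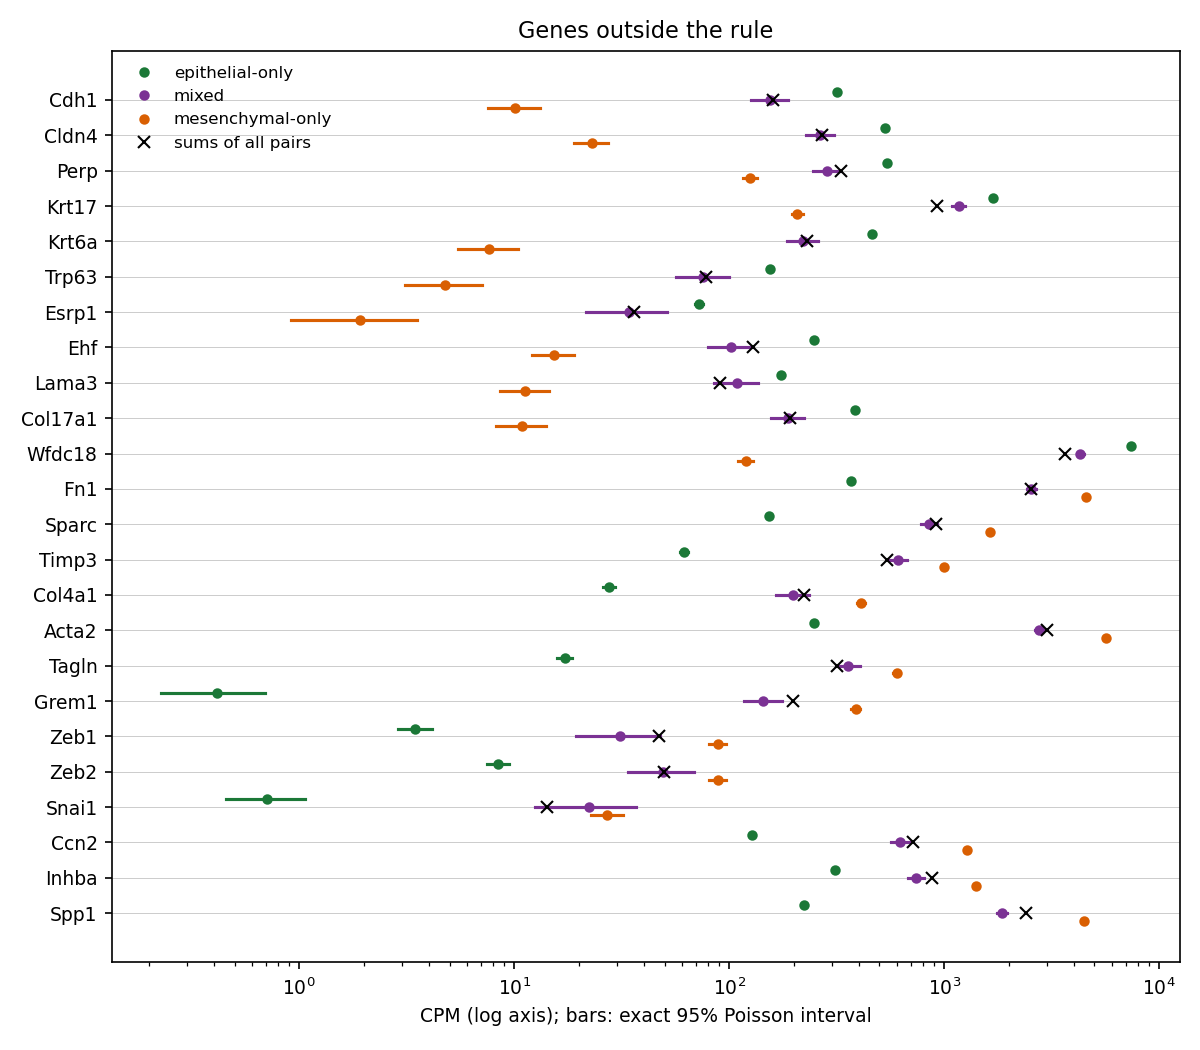
CPM (x axis, log) of 24 genes outside the rule in epithelial-only (green), mixed (purple) and mesenchymal-only barcodes (orange), with exact 95% Poisson intervals as bars, and in the sums of all pairs (crosses). The purple points lie between the others, and the crosses fall close to them, as for Cdh1 (154 and 160 CPM) and Fn1 (2546 and 2523 CPM).

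Some of the genes with the most extreme ratios came from the groups above. Highest against epithelial-only barcodes were Grem1, Actg2, Cacna1c, Ccn5, Fgf7, Adamts12, Col3a1 and Masp1, all of them at higher levels in mesenchymal-only than in mixed barcodes. Fgf7, a growth factor that mesenchyme sends to epithelia, stood at 44.5 CPM in mixed, 0.267 in epithelial-only and 65.3 in mesenchymal-only barcodes. Highest against mesenchymal-only barcodes were Prl2c5, Sprr2d, Pof1b, Tnf, St14, Wfdc18, Sprr1b and 2610528J11Rik. Wfdc18, a secreted protein of the whey acidic protein family, stood at 4291 CPM in mixed, 7382 in epithelial-only and 119 in mesenchymal-only barcodes. Sprr2d came from 4 barcodes, 1 of which held 66.7% of its UMIs. Lowest against epithelial-only barcodes were Nts, Sdad1, Sh2d4a, Gabrp, Prrg4, Ei24, Ddx41 and Ltf. Sdad1 rested on 2 UMIs in mixed barcodes, Ei24 and Ddx41 on 3 each and Sh2d4a on 4. Sdad1, Ei24 and Ddx41 were called lower than in mesenchymal-only barcodes as well. Nts, which encodes the peptide neurotensin, had 1 UMI in the mixed barcodes against 81.1 CPM in epithelial-only barcodes and 39.9 CPM in pairs, and Gabrp 14.8 against 78.7 CPM in epithelial-only barcodes. Lowest against mesenchymal-only barcodes were Gatm, Sorcs1, Epha3, Cck, Pmp22, Fzd7, Actg2 and Tgds, each with 13 UMIs or fewer in mixed barcodes.

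Of the 102 genes called against the pairs, 95 rested on fewer than 20 UMIs in the mixed barcodes. The others were 6 genes higher and 1 lower. Ube2c, a ubiquitin-conjugating enzyme of mitotic exit, stood at 313 CPM in mixed barcodes (272 to 358, 211 UMIs in 32 barcodes) and 156 CPM in pairs, a ratio of 2.01. Of its UMIs, 61 came from the 19 mixed barcodes with a fitted share under 0.2, and without these it stood at 253 CPM (214 to 296), a ratio of 1.62 that is below the limit of the call. Aqp5, a water channel, stood at 29.7 CPM in mixed barcodes (18.1 to 45.8, 20 UMIs in 13 barcodes), 2.47 times the pair level. Krt16 stood at 66.8 against 15.7 CPM, mostly from the 1 barcode named above. Nup188, Mdp1 and 2310022B05Rik had ratios from 2.02 to 2.07, and from 1.90 to 1.96 without the 19. Irgm1, an interferon-induced GTPase, was lower at 29.7 against 60.4 CPM, a ratio of 0.491 that became 0.558 without the 19. Aqp5 and Krt16 kept ratios of 2.81 and 4.72. Both Slurp1 and 4833422C13Rik, among the 8 with the highest ratios to the pairs, came from 1 barcode each. The other 6 were Gm50147, Peg3, Hist1h2bb, Krt16, Ramp3 and Dand5. Lowest against the pairs were Nts, Sdad1, Ddx41, Ei24, Gatm, Tgds, Zcchc2 and Kdm5d.

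Levels outside the range of both classes were rare. By the call rule, 8 of 9328 genes were higher in mixed barcodes than in either class (Intu, Peg3, Dand5, Def8, Krt16, Hist1h2bb, 4833422C13Rik and Gm50147). Of the same 9328, 12 were lower (Mrgbp, Arhgef11, Nsmaf, Shb, Sdad1, Wbp1, Dync2h1, Ei24, Mthfs, Ddx41, AY036118 and Brcc3). Many rest on few UMIs: the 7 of 4833422C13Rik lay in 1 barcode, and Nsmaf and Shb had 1 UMI each. Def8 rested on 15 UMIs in 15 barcodes, 22.3 CPM against 8.51 and 8.03 in the classes. Intu, a planar polarity protein needed for cilia, rested on 12 UMIs in 12 barcodes, 17.8 CPM against 7.38 and 6.11.

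As a summed list, genes of G2 and mitosis were above the pair level, which does not hold for each gene. Ube2c alone gave 211 of the 673 UMIs of the list in mixed barcodes. The G2 and mitosis list stood at 998 CPM in mixed barcodes (924 to 1077), 1009 in epithelial-only, 355 in mesenchymal-only and 673 in pairs. Without the 19 barcodes of low share it stood at 815 CPM (744 to 891) in the mixed barcodes. Of 16 genes, Aurkb was called lower than in epithelial-only barcodes, 12 of 15 were called higher than in mesenchymal-only barcodes, and Ube2c and Plk1 were called higher than in the pairs. Over all genes these shares were 2.6%, 5.03% and 0.415%, so the single call of Aurkb says little about the list. Plk1, a mitotic kinase, rested on 18 UMIs in 13 barcodes. Top2a, a topoisomerase of dividing cells, stood at 135 CPM in mixed barcodes (109 to 166), 152 in epithelial-only, 48.3 in mesenchymal-only and 98.6 in pairs. Ube2c had a UMI in 22.9% of mixed (16.2 to 30.7%), 18.5% of epithelial-only and 5.84% of mesenchymal-only barcodes. Thinned to 1500 UMIs these shares were 18.6% (12.5 to 26.0%), 14.0% and 4.03%. The S phase list stood at 337 CPM in mixed barcodes (294 to 384), 434 in epithelial-only, 241 in mesenchymal-only and 335 in pairs. Of its 13 genes tested, Gins2 was called lower than in epithelial-only barcodes, and Mcm7 and Rrm2 were called higher than in mesenchymal-only barcodes. Over all genes, 2.6% were called lower in the first of these comparisons and 5.03% higher in the second. So few calls do not set the list apart.

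Some squamous and secretory genes were far from the epithelial-only level. Ly6d, a surface marker of stratified epithelium, stood at 375 CPM in mixed, 1162 in epithelial-only, 26.8 in mesenchymal-only barcodes and 580 in pairs, found in 58 mixed barcodes. It was the 1 gene of 4 differentiated squamous genes called lower than in epithelial-only barcodes, where 2.6% of all genes were. Lcn2, an iron-siderophore binding protein of stressed epithelium, stood at 97.9 against 294 CPM in epithelial-only barcodes, with 48.5% of its UMIs in 1 barcode. Spp1, which encodes the secreted phosphoprotein osteopontin, stood at 1859 CPM in mixed, 224 in epithelial-only, 4481 in mesenchymal-only barcodes and 2407 in pairs.

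The engineered genes were read at their 3' ends, which does not check either deletion. Trp53 stood at 41.5 CPM in mixed (27.6 to 60.0), 51.7 in epithelial-only and 17.2 in mesenchymal-only barcodes, called against the last. Cdkn2a, which encodes cell cycle inhibitors, stood at 915, 554 and 1248 CPM and was called in no comparison. Notch1, which the labels do not name as altered in this culture, stood at 14.8, 26.5 and 6.69 CPM. Markers of other cell types were near absent. Of 10 immune genes 9 had 0 UMIs in the mixed barcodes and Cd68, a lysosomal protein of macrophages, had 6. Of 8 endothelial genes 7 had 0, with 1 UMI of Pecam1. Of 9 immediate early genes tested, which rise with cell dissociation, Fos was called lower than in epithelial-only barcodes, and of 7 tested Egr1 was called higher than in mesenchymal-only barcodes. These are single calls, where 2.6% and 5.03% of all genes were called in those directions. The nuclear RNA Malat1 stood at 10774 CPM in mixed, 16549 in epithelial-only and 12754 in mesenchymal-only barcodes.

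The mixed barcodes spread widely along the fitted share. The share was fitted on all genes outside the rule, so the levels of those genes in the ranges below follow from how the ranges were cut and are given as descriptions. The 19 with a fitted share under 0.2 had a median of 4109 UMIs and a median Scrublet score of 0.0871, and 4 of the 19 reached the highest 10% of scores. Of the 19, 17 had exactly 2 UMIs of Vim and Col1a1, and 1 had both genes. Fn1 stood at 387 CPM (263 to 549) against 370, Acta2 at 312 (202 to 460) against 249 and Cdh1 at 287 (182 to 430) against 317. The mesenchymal lists together, 44 genes, stood at 6584 CPM (6034 to 7170) in these 19 against 6060 in epithelial-only barcodes. Zeb1, Zeb2 and Col3a1 had 0 UMIs in them, where 3 UMIs would be 37.4 CPM. The levels of Zeb1 and Col3a1 could therefore not be told from those of all mixed barcodes at this depth. Zeb2 stood at 49.0 CPM in all mixed barcodes (33.7 to 68.8), an interval that held 46.0 CPM, the upper limit for 0 UMIs. Against epithelial-only barcodes, 251 of 9670 genes (2.6%) were called for these 19, with 206 higher (2.13%). Timp3 was called higher at 424 CPM against 61.5, from 34 UMIs in 8 barcodes. Wfdc18 was called higher at 14764 CPM against 7382, found in 18 of the 19. Ube2c was called higher at 761 against 240 CPM, from 6 barcodes. Ly6d was called lower at 287 against 1162 CPM.

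The 108 barcodes with a share from 0.2 to 0.8 had a median of 4740 UMIs and a median score of 0.368, and 93 of them reached the highest 10%. Of 121 mesenchymal-only barcodes with a share of 0.8 or less, 58 (47.9%) reached it too. Of 556 epithelial-only barcodes with a share of 0.2 or more, 54 (9.71%) did. Fn1 stood at 2730 CPM and Cdh1 at 135 CPM in them. The 13 with a share over 0.8 had a median of 4165 UMIs and a median score of 0.116, and 3 reached the highest 10%. Fn1 stood at 3937 CPM (3422 to 4509) and Cdh1 at 151 CPM (65.1 to 297) in these 13. The middle range held 93 of the 100 mixed barcodes with high Scrublet scores. Score and share both read the counts of the same barcodes. They are therefore linked, and 1 is no independent check of the other. Of the pairs, 99.5% drew a part of 0.2 to 0.8 of their UMIs from the mesenchymal barcode, a part of UMIs and no fitted share.

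The barcodes just inside and just outside the rule show how the limits act. The 45 members with 2 UMIs of Vim and Col1a1 had a median fitted share of 0.35 and the mesenchymal lists at 12791 CPM. The 227 barcodes with 1 such UMI, just outside, had a median share of 0.02 and 7943 CPM. The 52 members with 3 or 4 UMIs had a median share of 0.525 and the 43 members with 5 or more had 0.58. On the epithelial side, the 24 members with 5 UMIs of Krt5, Krt14 and Epcam had a median share of 0.64, the 46 genes of the epithelial lists at 4323 CPM and Cdh1 at 165 CPM. The 28 barcodes with 4, just outside, had a median share of 0.805, the lists at 3406 CPM and Cdh1 at 82.3 CPM. The 51 members with 10 or more had a median share of 0.35 and a median of 5307 UMIs.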

How the data were processed

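The deposited matrix held raw UMI counts of genes by barcodes. CellRanger 8.0.1 wrote it, per the file headers, with mm10 and Scanpy 1.8.2 named in the submitters' processing notes. The annotation and the aligner settings were not given in the sources used here. No file names the library of the matrix, so it was treated as 1 pooled sample. There is 1 matrix, so barcodes shared between libraries could not be counted. The members and gene lists were chosen with earlier results of these data known. Counts were summed over each class (674044 UMIs in mixed, 33718906 in epithelial-only and 5233404 in mesenchymal-only barcodes) and scaled to CPM. Levels have exact Poisson and shares exact Clopper-Pearson intervals at 95%. With 1 sample there was no test and no p-value. Pair levels used every possible pair and no random draw. The mesenchymal share was fitted by maximum likelihood in steps of 0.01 with a pseudocount of 0.5. Doublet scores came from Scrublet (scanpy 1.11.5, expected rate 5%), and no barcode was removed by them. Gene calls and share fits were tried on counts simulated from the class profiles, drawn independently. That setting has no clumping of UMIs in single barcodes, so it does not cover genes carried mostly by 1 barcode. Named genes were the rule genes, the engineered genes, up to 8 called genes with the largest ratio in each direction of each comparison, and, from each list, called genes and the most abundant members. Alternatives changed the filters, the rule, the call limits and the references. UMIs of 3' ends cannot separate near-identical gene copies such as Prl2c5 and its relatives, and overlapping genes may share reads. Of the libraries of genetic barcodes and scars, nothing but the UMIs listed under GFP and Scar was used here. Python 3.11.15, numpy 2.4.6, scipy 1.17.1 and pandas 2.3.3 were used.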

Additional observations from a re-analysis of the deposited data

Results flagged for a closer look

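Besides mouse genes, the matrix counted 2 added sequences that no comparison used. GFP had a UMI in 140 of 140 mixed barcodes (100%, exact 95% interval 97.4 to 100%, above the 2.14% that a count of 0 would allow), and Scar had a UMI in 140 of 140 as well (100%). GFP stood at 14374 CPM in mixed, 14503 in epithelial-only and 12463 in mesenchymal-only barcodes. Scar stood at 13474, 13857 and 11081 CPM in the same order. Both were near universal in the single-condition classes too, with GFP in 100% of both and Scar in 10327 of 10330 and 1522 of 1523 barcodes, and there is no sample without them to give a background.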

How the results depend on the processing

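Of 56 values recomputed over 15 alternative settings, 30 were stable and 26 moved. The share and the median UMI count were taken as stable within the 95% interval of the main value, and counts of genes within a factor of 1.5. The share of mixed barcodes, 0.938%, became 1.21% with at least 1000 genes and 2000 UMIs, 0.342% with at least 10 epithelial UMIs, 0.637% and 0.288% with at least 3 and 5 mesenchymal UMIs, 0.299% (40 barcodes) without the highest 10% of Scrublet scores, 0.0377% (5 barcodes) with the rule on counts thinned to 1500 UMIs and 0.777% with Vim alone, an alternative chosen after seeing the data. The median of 4602 UMIs became 5307, 5124, 4300 and 3104 with at least 10 epithelial UMIs, with at least 5 mesenchymal UMIs, without high Scrublet scores and with thinning.

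Against epithelial-only barcodes, the 723 calls became 274 with thinning, 1267 and 344 at ratios of 1.5 and 3, and 240 at a level of at least 50 CPM. Against mesenchymal-only barcodes, the 722 calls became 388 with at least 5 mesenchymal UMIs, 282 with thinning, 1205 and 379 at those ratios and 251 at 50 CPM. Against the pairs, the 102 calls became 169 (98 higher, 71 lower) with at least 10 epithelial UMIs, 232 (151 higher, 81 lower) without high Scrublet scores, 179 with thinning, 192 and 31 at those ratios and 5 at 50 CPM. Thinning and the stricter rules leave fewer barcodes, and the ratio and CPM limits change the call itself. A cause beyond these was not tested. The fitted mix in place of pairs gave 100 calls. Leaving out the 19 members of low share, an alternative chosen after seeing the data, gave 859, 580 and 100 calls in the 3 comparisons, and took Ube2c from 313 to 253 CPM.

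No paired analysis was possible because the values form 1 sample. Depth limits genes under about 20 UMIs in the mixed barcodes, and all intervals cover counting error only.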
